A study of Rattus norvegicus with 29 samples.

Results

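Fear conditioning was compared with an untreated baseline in the basolateral amygdala of the rat. The comparison takes the 5 arrays titled as fear conditioning and the 9 titled as baseline controls, which are 14 of the 29 arrays of the series, and all 15866 probe sets that are not array controls. Groups were chosen by title and design text, not by any measured value. The fear conditioning arrays hold total RNA taken 6 h after conditioning, from the rats numbered 24, 25, 27, 28 and 31. The baseline arrays carry no time, no treatment and no rat numbers, so nothing says that these replicates came from different animals. The p-values rest on the spread between arrays within groups, pooled over all 5 groups of the series. That spread may be technical in part. A pain group (5 arrays, 6 h, pain being described as a component of conditioning) and a group conditioned under the inhaled anaesthetic isoflurane (5 arrays, 6 h) are used for comparison. A group given isoflurane alone (5 arrays, 6 h) is not compared here but enters the normalization, the filter and the fit. Strain, sex and age are not given in the sources used here. A labelling kit, the ENZO BioArray RNA Transcript Labeling Kit, is named for the baseline arrays and not for the fear conditioning arrays, so a difference in labelling and the effect of conditioning cannot be told apart.

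In fear conditioning an animal learns that a neutral signal or place predicts a painful event. The basolateral amygdala is where the neural pathways for the signal and for pain converge, and lasting storage of the memory there depends on new transcription and protein synthesis in the hours after training. Neuronal activity first induces immediate early genes, such as Fos, Egr1 and Arc, whose transcripts are short-lived, and these are followed by slower waves of effector genes. Training is also stressful, and the adrenal hormone corticosterone, acting through nuclear receptors in neurons and glia, induces its own set of transcripts. The question the labels state is which transcripts differ 6 h after conditioning, when memory is being consolidated.

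Differences between the groups were small against the spread between arrays, and none passed the test after adjustment. The signals are the authors' scaled intensities, quantile normalized and put on the log2 scale, and each log2 difference is fear conditioning minus baseline. Of 9520 probe sets above the expression filter, limma called 0 at an adjusted p under 0.05 (0 percent), with a lowest adjusted p of 0.415. At an unadjusted p under 0.05 there were 966 probe sets (10.1 percent), 487 higher and 479 lower. With each array centred on its median instead, 222 were higher and 847 lower, so the balance of higher and lower genes depends on the scaling. For a typical probe set the standard error was 0.13 and the 95 percent confidence interval reached 0.26 to either side (medians, log2), while the log2 difference of 8203 probe sets (86.2 percent) lay within 0.25 of 0. Only 45 probe sets stood more than 0.5 above baseline and 74 more than 0.5 below it. The median SD among arrays was 0.21 in the fear conditioning group and 0.22 in the baseline group. Averaged per gene, the median log2 difference of 7049 genes was -0.01, 335 genes were higher at an unadjusted p under 0.05 (4.75 percent) and 392 were lower (5.56 percent). These 2 shares are the background against which the gene lists are read.

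Several arrays stood apart. Baseline replicate 1 had a signal of 13.87 for Ttr, the transthyretin of the choroid plexus, against 8.51, 8.40, 7.86, 7.39 and 9.19 in the fear conditioning arrays and a baseline median of 7.49. Baseline replicate 3 was high in genes that mark striatum (list mean 1.04 above the genes' means over the 14 arrays), hypothalamus and thalamus (0.91) and in neuropeptides (0.78). Fear conditioning replicate 4 was the only conditioning array high in striatal genes (0.34, against -0.38 to -0.21 in the others), and replicate 2 was high in astrocyte (0.40, against 0.05 to 0.07) and endothelial genes (0.36, against 0.02 to 0.11). Without these 4 arrays, a choice made after seeing the data, 571 probe sets had an unadjusted p under 0.05 and 1 passed adjustment. That probe set, which has no gene symbol here, differed by -2.27 without the 4 arrays (adjusted p 0.0326) and by -1.34 with them, and it read 5.43, 8.18, 5.72, 8.50 and 7.34 in fear conditioning arrays 1 to 5, against 7.67 to 8.88 at baseline. Without fear conditioning replicate 2 alone, 575 probe sets had an unadjusted p under 0.05. Baseline replicates 6 to 9 also differed from replicates 1 to 5. Against replicates 6 to 9 alone 101 probe sets passed adjustment, 55 higher and 46 lower, with 1728 at an unadjusted p under 0.05, whereas against replicates 1 to 5 alone limma called 0, with 662 at an unadjusted p under 0.05. The ratio of 3' to 5' actin probe sets, a measure of RNA integrity, overlapped between the groups (1.32 to 1.85 after fear conditioning, 1.14 to 1.84 at baseline). The tissue was checked against projection-neuron markers, and Slc17a7, the vesicular glutamate transporter of cortex and basolateral amygdala, averaged 10.47 ± 0.40 after fear conditioning and 10.28 ± 0.54 at baseline (SD, n = 5 and 9). Its log2 difference was the highest of the 8 tested projection-neuron genes, of which 3 had a positive and 5 a negative log2 difference (-0.33 to 0.19, median -0.06) and 0 an unadjusted p under 0.05.

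The genes with the lowest p-values among those higher after conditioning were Cnn3, Cryab, Gstt3, Stx4, Ctnnd1, Chpt1, Mal, Gja1, P2rx6, Csad, Tnpo1 and Idh2, with log2 differences of 0.26 to 0.70 and an adjusted p of 0.415 each in the limma fit. Cnn3, a calponin that binds actin filaments, read 11.07, 11.42, 10.85, 10.63 and 10.96 in the 5 fear conditioning arrays, against 10.18 to 10.79 at baseline with a median of 10.42. All but array 4 lay above the highest baseline array, and the log2 difference was 0.54 (SE 0.12), or 1.45-fold. Cryab, the small heat shock protein alpha-B-crystallin, which is abundant in glia, read 9.54, 9.77, 9.27, 9.33 and 9.83 after fear conditioning, against 8.66 to 9.30 at baseline with a median of 9.00. Here too 4 of 5 conditioning arrays exceeded every baseline array, with a log2 difference of 0.55 (SE 0.14). Tnpo1, a nuclear import receptor, read 9.24, 9.94, 9.53, 9.11 and 9.67 after fear conditioning, against 8.24 to 9.17 at baseline with a median of 8.80, the largest log2 difference of the 12 (0.70, SE 0.19). Array 4 again fell within the baseline range.

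Among the others in this set, 2 belong to glia. Mal, a membrane protein of compact myelin, read 10.44, 10.91, 10.96, 10.83 and 11.31 after fear conditioning, against 9.91 to 10.98 at baseline with a median of 10.34 (log2 difference 0.54, SE 0.14), and only array 5 exceeded the highest baseline array. Gja1, connexin 43 of astrocyte gap junctions, read 12.88, 13.19, 13.00, 13.01 and 12.93 after fear conditioning, against 12.56 to 12.92 at baseline with a median of 12.72 (0.26, SE 0.07). A further tested probe set of Gja1 differed by 0.16, and another, below the filter, by -0.03. Metabolic and detoxifying enzymes were also present: the glutathione transferase Gstt3 (0.40, SE 0.10), the mitochondrial isocitrate dehydrogenase Idh2 (0.39, SE 0.11), Csad, which makes the precursor of taurine (0.41, SE 0.11), and Chpt1, which makes phosphatidylcholine (0.57, SE 0.15). The remaining genes act at membranes. Stx4, a syntaxin of plasma-membrane fusion, differed by 0.35 (SE 0.09), Ctnnd1, the p120 catenin of cell junctions, by 0.52 (SE 0.14), and P2rx6, a subunit of ATP-gated channels, by 0.66 (SE 0.18). Their conditioning arrays overlapped the baseline range in every case.

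The 12 lower genes with the lowest p were Ier5l, Slc45a4, Hagh, Ptrh2, Mef2d, Zfp330, Cadm3, Borcs8, Scg5, Ndufaf3, Cd47 and Ngdn, with log2 differences of -0.66 to -0.29 and the same adjusted p of 0.415. Ier5l, a relative of the immediate early response gene Ier5, read 7.09, 7.02, 7.30, 7.30 and 7.03 after fear conditioning, against 7.53 to 7.94 at baseline with a median of 7.73. The groups did not overlap, and the log2 difference of -0.59 (SE 0.13) had the lowest p of all probe sets with 1 symbol. The signal is low: the conditioning mean of 7.15 lies under the filter value of 7.26, which applies to the mean over all arrays. The conditioning mean of Slc45a4 (7.02) and the baseline mean of P2rx6 (7.10) lie under it too. Borcs8, a subunit of the BORC complex that places lysosomes in the cell, also had groups that did not overlap, at 8.12, 8.04, 7.74, 7.70 and 7.40 after fear conditioning and 8.19 to 8.51 at baseline (median 8.31), but a second tested probe set of Borcs8 differed by 0.10 the other way.

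Several of the lower genes work in neurons. Mef2d, an activity-dependent transcription factor of the MEF2 family that restrains excitatory synapse number, read 8.04, 8.49, 7.65, 7.89 and 7.88 after fear conditioning, against 8.20 to 9.29 at baseline with a median of 8.54 (log2 difference -0.63, SE 0.16). All conditioning arrays but array 2 lay under the lowest baseline array, whereas a second probe set of Mef2d differed by 0.04. Cadm3, a synaptic adhesion molecule, read 8.62, 8.65, 9.30, 9.66 and 9.35 after fear conditioning, against 9.45 to 9.81 at baseline with a median of 9.64 (-0.51, SE 0.14), with arrays 1 and 2 far below the rest. Scg5, the neuroendocrine protein 7B2 that assists a prohormone convertase, differed by -0.29 (SE 0.08), and Cd47, the surface protein that signals to phagocytes, by -0.41 (SE 0.12), with a second Cd47 probe set at 0.01. Slc45a4, a solute carrier, differed by -0.66 (SE 0.16). Genes of organelles completed the set: Hagh, a glyoxalase that clears a by-product of glycolysis (-0.36, SE 0.09), Ndufaf3, an assembly factor of respiratory complex I (-0.32, SE 0.09), Ptrh2, a mitochondrial peptidyl-tRNA hydrolase (-0.43, SE 0.11), Ngdn (-0.49, SE 0.14) and the zinc finger gene Zfp330 (-0.40, SE 0.10). The second tested probe set of Ptrh2 differed by -0.08. Against baseline replicates 6 to 9 alone, 7 of the 24 genes passed adjustment, namely Cnn3 (log2 difference 0.61), Ctnnd1 (0.76), Mal (0.72), Gja1 (0.34), Slc45a4 (-0.85), Hagh (-0.41) and Ngdn (-0.72). Over all probe sets, 101 of 9520 passed in that setting. The 24 were chosen for low p in arrays that include these, so their passing is no separate support.

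**Figure D1:**
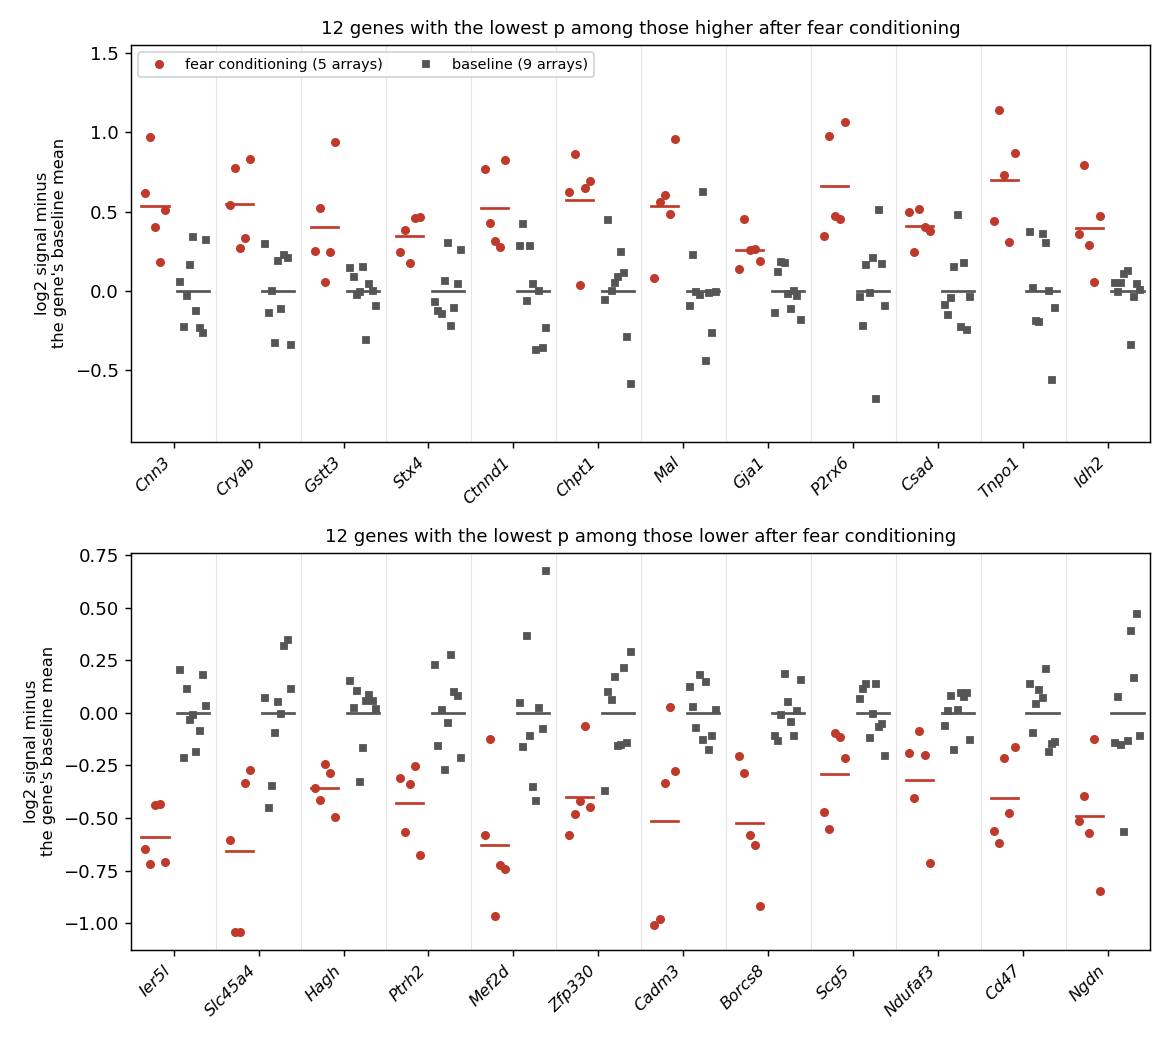
Each column is 1 gene, with the 5 fear conditioning arrays as red circles and the 9 baseline arrays as grey squares, on the log2 scale relative to the gene's baseline mean; horizontal bars are group means. The groups overlap for all genes shown except Ier5l and Borcs8, and differences of the means lie between 0.26 and 0.70 above (upper panel) and between 0.29 and 0.66 below baseline (lower panel).

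Only 11 probe sets (0.116 percent) had all 5 fear conditioning arrays outside the range of the 9 baseline arrays, 5 above and 6 below. For 5 and 9 exchangeable arrays, chance alone separates about as many of 9520 probe sets in this way. The 11 are therefore given as a description, and non-overlap is no support for any of them. Above it lay Vgll4, a cofactor that competes in Hippo signalling, with 7.91, 7.80, 7.61, 7.82 and 7.84 after fear conditioning and 7.19 to 7.57 at baseline (log2 difference 0.47). Uqcrq, a subunit of respiratory complex III, read 11.95, 11.82, 11.92, 11.79 and 11.80 after fear conditioning and 11.43 to 11.77 at baseline (0.20). Vezf1, an endothelial zinc finger factor (0.40), Ube2l6, the conjugating enzyme of the ubiquitin-like ISG15 (0.26), and a probe set with no symbol (0.30) were the others. Below the baseline range, besides Ier5l and Borcs8, lay Sncb, beta-synuclein of nerve terminals, with 12.19, 12.06, 12.22, 12.21 and 11.78 after fear conditioning and 12.23 to 12.50 at baseline (-0.26). Ttc27 (-0.54), KIAA0319l, an adeno-associated virus receptor (-0.23), and a second probe set with no symbol (-0.40) completed the 11. Several of these gaps were narrow. The highest conditioning and lowest baseline arrays read 8.896 and 8.897 for KIAA0319l, and 12.22 and 12.23 for Sncb. For Uqcrq the lowest conditioning array read 11.79 and the highest baseline array 11.77.

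Immediate early transcription factors, the first genes switched on by neuronal activity, lay on both sides of baseline at 6 h. Of 26 listed, 15 passed the filter, 4 with a positive and 11 with a negative log2 difference, with a median of -0.08 against -0.01 over all genes. At an unadjusted p under 0.05, 2 were higher and 3 lower, and limma called 0 of them after adjustment. Without the 4 arrays that stand apart 8 of the 15 were positive, 0 were higher and 1 lower at that p, and the median was 0.00. Egr1, a zinc finger factor needed for memory storage, read 10.18, 10.08, 10.30, 10.60 and 10.67 after fear conditioning, against 10.50 to 10.95 at baseline with a median of 10.67 (log2 difference -0.35, SE 0.12, adjusted p 0.396). Arrays 1 to 3 lay under the baseline range and arrays 4 and 5 inside it. Junb, an AP-1 subunit, read 8.79, 7.91, 8.66, 8.91 and 8.38, against 8.68 to 9.15 at baseline (median 8.82; -0.32, SE 0.13), again with 3 arrays under the range. Nr4a3, an orphan nuclear receptor, ran the other way, with 9.01, 9.38, 9.02, 9.87 and 10.21 after fear conditioning and 8.59 to 9.39 at baseline (median 9.14; 0.44, SE 0.17), and only arrays 4 and 5 lay above the range. Crem, whose product includes the inducible repressor of cAMP signalling ICER, read 8.33, 8.15, 7.94, 8.11 and 8.27, against 5.42 to 8.09 at baseline with a median of 7.87. All but 1 conditioning array exceeded every baseline array, with a log2 difference of 0.77 (SE 0.33), and baseline replicates 1 and 3 stood far below the other baseline arrays at 6.00 and 5.42. Fos, the classical activity marker, read 7.31, 7.89, 8.23, 8.14 and 7.88 after fear conditioning, against 6.18 to 9.21 at baseline with a median of 7.87, so the 5 conditioning arrays sat in the middle of a wide baseline spread (log2 difference -0.06, SE 0.36). Nr4a1 differed by -0.30 (SE 0.15).

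The slower activity-regulated effectors had 17 members above the filter, 6 with positive and 11 with negative differences and a median of -0.15; 1 was higher and 2 lower at an unadjusted p under 0.05. Arc, a cytoskeletal protein of active dendrites, read 9.23, 9.05, 9.00, 9.63 and 9.09 after fear conditioning, against 8.62 to 10.07 at baseline with a median of 9.33 (-0.06, SE 0.16). Bdnf, the neurotrophin most tied to synaptic strengthening, read 6.98, 7.13, 7.93, 7.71 and 7.56, against 7.02 to 8.53 at baseline with a median of 7.84 (-0.38, SE 0.23). All 5 conditioning arrays lay inside the baseline range for Arc, and all but array 1 for Bdnf. Homer1, a scaffold whose short form is induced by activity, averaged 9.14 ± 0.25 after fear conditioning and 9.14 ± 0.29 at baseline (SD, n = 5 and 9), but its 3 tested probe sets disagreed, at -0.16, 0.46 and -0.29. Rheb, the GTPase that activates mTOR, read 12.00, 11.98, 12.09, 11.96 and 11.92, against 12.04 to 12.28 at baseline (median 12.17; -0.18, SE 0.06), with 4 of 5 conditioning arrays under the range. Plat, the tissue plasminogen activator that acts on synapses and matrix, read 7.71, 9.25, 8.75, 8.21 and 9.47, against 7.60 to 8.42 at baseline (median 8.01; 0.67, SE 0.21), with arrays 2, 3 and 5 above the range. Rgs2, a brake on G-protein signalling, differed by -0.33 (SE 0.15) and Plk2, a kinase that weakens overactive synapses, by -0.23 (SE 0.12). The median of this list was -0.02 without the 4 arrays that stand apart and 0.01 against baseline replicates 6 to 9 alone, and no direction is given for it. The shape is shown gene by gene in the plot of activity and corticosterone genes.

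**Figure D2:**
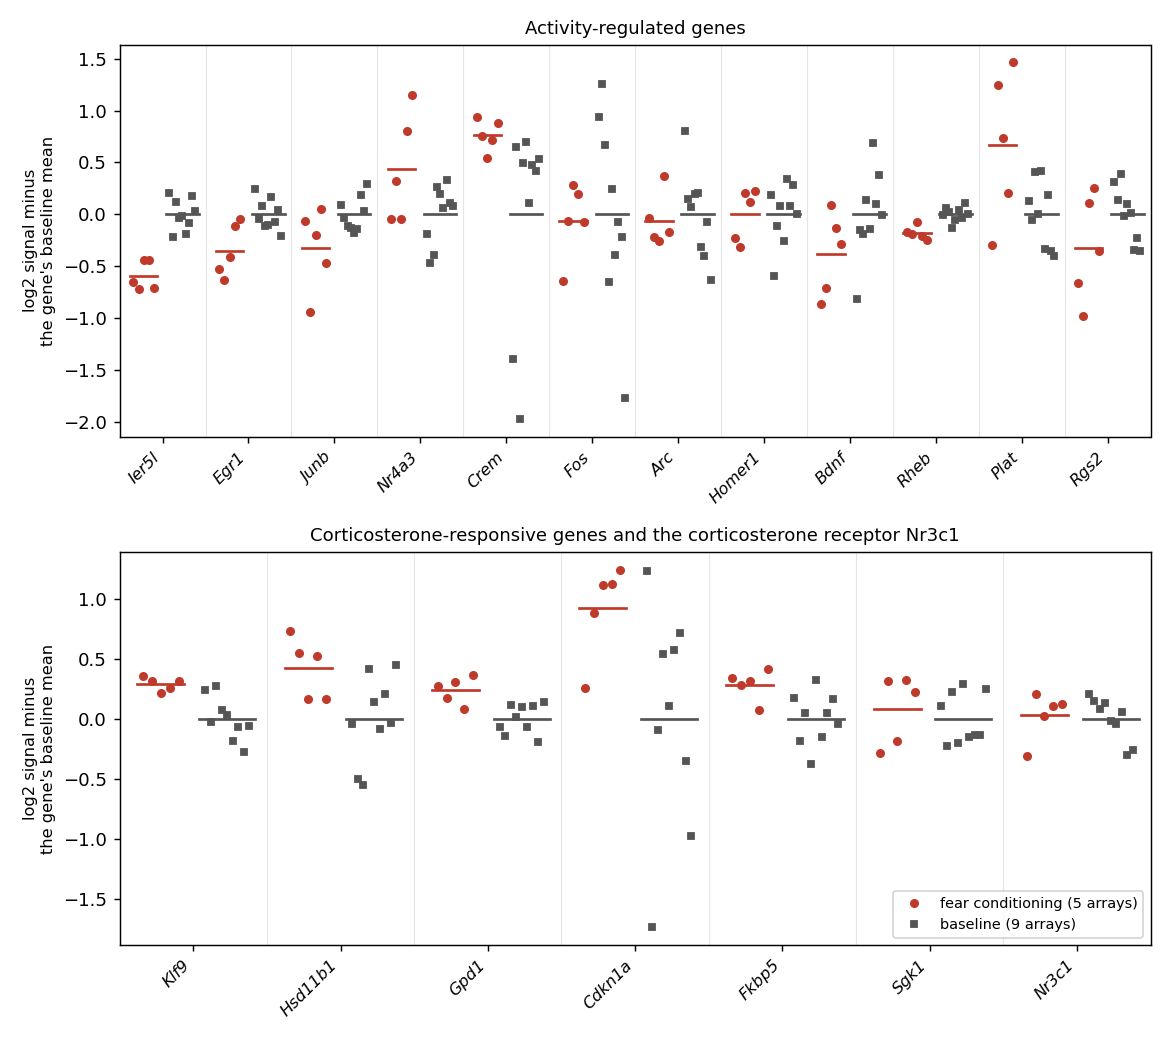
Log2 signal of activity-regulated genes (upper panel) and corticosterone-responsive genes with the receptor gene Nr3c1 (lower panel), relative to each gene's baseline mean; red circles are the 5 fear conditioning arrays, grey squares the 9 baseline arrays, bars the group means. The conditioning arrays of Ier5l lie below all baseline arrays, those of Fos and Arc lie inside the baseline spread, and Klf9 and Gpd1 have 3 and 4 of 5 conditioning arrays above it.

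Promoter sequences of 3 of these genes are shown because both families are textbook targets of CREB, the factor that binds the cAMP response element (letters TGACGTCA) or its core (letters TGACG, contained in the full element). Windows run from 250 bases before to 50 after the RefSeq gene start of build GRCr8, both strands were searched, and capitals mark the match (core for Junb and Nr4a1, full element for Plk2). Junb is at chr19:40080876-40081175, Nr4a1 at chr7:134259888-134260187 and Plk2 at chr2:43702286-43702585, all on the plus strand.
Junb: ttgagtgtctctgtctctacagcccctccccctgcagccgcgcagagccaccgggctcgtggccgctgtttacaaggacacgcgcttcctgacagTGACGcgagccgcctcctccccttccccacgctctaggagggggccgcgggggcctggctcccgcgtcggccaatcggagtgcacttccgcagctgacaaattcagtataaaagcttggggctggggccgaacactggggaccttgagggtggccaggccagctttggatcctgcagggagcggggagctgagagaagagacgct
Nr4a1: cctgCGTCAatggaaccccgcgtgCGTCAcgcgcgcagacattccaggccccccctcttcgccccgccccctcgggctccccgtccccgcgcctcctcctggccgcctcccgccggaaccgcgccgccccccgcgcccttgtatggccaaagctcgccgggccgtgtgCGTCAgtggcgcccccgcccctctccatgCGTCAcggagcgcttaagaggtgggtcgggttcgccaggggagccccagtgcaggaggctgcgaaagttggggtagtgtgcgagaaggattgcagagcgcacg
Plk2: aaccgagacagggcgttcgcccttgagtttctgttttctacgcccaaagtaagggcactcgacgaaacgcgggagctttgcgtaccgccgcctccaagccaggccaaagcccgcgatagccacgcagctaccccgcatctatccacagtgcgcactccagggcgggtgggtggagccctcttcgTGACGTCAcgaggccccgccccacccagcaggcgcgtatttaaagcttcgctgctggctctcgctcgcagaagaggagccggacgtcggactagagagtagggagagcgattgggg
Of the 15 immediate early factors, 11 had a window, 8 of which held the core and 0 the full element. Of the 17 effectors, 13 had a window, with the core in 9 and the full element in 4 (Dusp1, Vgf, Scg2 and Plk2). Over all 33469 windows the core occurred in 21.2 percent and the full element in 1.83 percent. A match describes these letters only. Junb and Nr4a1, whose windows hold only the core, and Plk2, whose window holds the full element, had log2 differences of -0.32, -0.30 and -0.23 at 6 h. Among other members whose windows hold the core, Egr1 stood at -0.35 and Crem at 0.77. Whether a match goes with a direction was not tested.

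Corticosterone-responsive genes stood the other way. Of 29 listed, 20 passed the filter and 19 of these had a positive log2 difference, with a median of 0.13 against -0.01 over all genes; 6 were higher and 0 lower at an unadjusted p under 0.05, against the background of 4.75 and 5.56 percent. None passed adjustment. Klf9, a transcription factor induced by the hormone, read 11.03, 10.98, 10.89, 10.92 and 10.98 after fear conditioning, against 10.39 to 10.94 at baseline with a median of 10.64 (log2 difference 0.29, SE 0.10, adjusted p 0.396), and 3 arrays exceeded the baseline range. Hsd11b1, the enzyme that regenerates corticosterone inside cells, read 11.10, 10.91, 10.53, 10.89 and 10.53, against 9.82 to 10.82 at baseline (median 10.33; 0.43, SE 0.15). Gpd1, a glycerol phosphate dehydrogenase of oligodendrocytes, read 9.19, 9.08, 9.22, 9.00 and 9.28, against 8.72 to 9.05 at baseline (median 8.93; 0.24, SE 0.10), with 4 of 5 arrays above the range. Cdkn1a, the cell-cycle inhibitor p21, had the largest difference (0.92, SE 0.39), but a baseline spread of 5.52 to 8.49 covered all but the highest conditioning array. Fkbp5, the co-chaperone that dampens the corticosterone receptor, read 8.79, 8.73, 8.76, 8.52 and 8.86, against 8.07 to 8.77 at baseline with a median of 8.49 (0.28, SE 0.12). Sgk1, a kinase of salt and stress responses, and Nr3c1, the receptor itself, differed by 0.08 (SE 0.19) and 0.03 (SE 0.09). The mean of the list was 0.10, 0.27, 0.08, 0.15 and 0.01 in fear conditioning arrays 1 to 5, against -0.24 to 0.02 at baseline, so 4 of 5 conditioning arrays lay above every baseline array. The highest was array 2, the array with the highest astrocyte mean, and the part of that array's glial content in the list was not tested. One member, S100b, is also an astrocyte marker. Without the 4 arrays that stand apart, 12 of 20 members were positive, the median was 0.03 and 5 had an unadjusted p under 0.05. With arrays centred on their medians, 16 were positive, the median was 0.08 and 2 were higher at that p. Against baseline replicates 1 to 5 alone 17 were positive (median 0.16, 2 higher), and against replicates 6 to 9 alone 17 (median 0.21, 4 higher). The core of the glucocorticoid receptor's site (letters AGAACA) was present in 1 of 17 windows of this list and in 20.7 percent of all windows.

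Glial and vascular markers lay mostly on the high side. In bulk tissue, more cells of a type and more RNA per cell cannot be told apart, and nor can fewer cells and less RNA. All 15 tested oligodendrocyte and myelin genes had a positive difference, with a median of 0.25 and 9 higher at an unadjusted p under 0.05. Astrocyte genes were positive in 20 of 21 (median 0.14, 4 higher at that p), microglial genes in 11 of 14 (median 0.15, 1 higher), and genes of endothelium and pericytes in 6 of 7 (median 0.21, 2 higher); 0 genes of these 4 lists were lower at that p. Oligodendrocyte precursor genes were positive in 3 of 4 (median 0.22). With arrays centred on their medians the counts were smaller: 13 of 15 myelin genes were positive (median 0.16, 3 higher), 16 of 21 astrocyte genes (median 0.06, 2 higher) and 8 of 14 microglial genes (median 0.07, 0 higher). Against baseline replicates 1 to 5 alone, 4 myelin, 2 astrocyte and 0 microglial genes were higher at that p, with medians of 0.20, 0.10 and 0.06. Against replicates 6 to 9 alone, 7 myelin, 9 astrocyte and 5 microglial genes were, with medians of 0.33, 0.20 and 0.18. Without the 4 arrays that stand apart, the endothelial median was 0.11 with 0 higher.

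Among myelin genes, Sirt2, a deacetylase concentrated in oligodendrocytes, read 11.50, 11.52, 11.67, 11.69 and 11.71 after fear conditioning, against 11.11 to 11.63 at baseline with a median of 11.39 (log2 difference 0.25, SE 0.08). Mog, a glycoprotein of the outer myelin surface, read 9.40, 9.98, 9.79, 9.75 and 10.60, against 9.10 to 9.95 at baseline (median 9.51; 0.39, SE 0.15). Array 1 was the lowest and array 5 the highest of the conditioning arrays for Mog, as for Mal. Sox10, the transcription factor of the oligodendrocyte lineage, ordered the arrays differently, with 9.51, 9.42, 8.90, 9.50 and 8.71 after fear conditioning and 8.46 to 9.32 at baseline (median 8.83; 0.38, SE 0.16). Mbp, myelin basic protein, differed by 0.25 (SE 0.12), all conditioning arrays lying inside the baseline range. Over arrays, the myelin list mean was -0.07, 0.25, 0.08, 0.12 and 0.43 after fear conditioning and -0.34 to 0.18 at baseline, and 2 conditioning arrays lay above the baseline range. Without the 4 arrays that stand apart, 14 of 15 were positive (median 0.23), with 2 higher at an unadjusted p under 0.05.

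Of the astrocyte genes, Gjb6, the gap-junction protein connexin 30, read 9.38, 10.13, 9.20, 9.50 and 9.25 after fear conditioning, against 8.22 to 9.31 at baseline with a median of 9.04 (0.60, SE 0.19). Gfap, the astrocyte intermediate filament, read 12.20, 12.46, 12.40, 12.19 and 12.51, against 11.59 to 12.35 at baseline (median 11.96; 0.40, SE 0.13, adjusted p 0.396), with arrays 2, 3 and 5 above the range. Vim, vimentin of reactive astrocytes and vessels, had the largest difference (0.93, SE 0.33) and a baseline range of 7.21 to 9.23. Ndrg2, a further astrocyte gene, differed by 0.15 (SE 0.06). The astrocyte list mean was 0.05, 0.40, 0.06, 0.05 and 0.07 in the 5 conditioning arrays and -0.33 to 0.13 at baseline, so array 2 alone lay above the baseline range. For microglia, B2m, the light chain of MHC class I, differed by 0.22 (SE 0.08) and Aif1, the marker Iba1, by 0.24 (SE 0.13), read as 8.71, 8.48, 8.42, 7.99 and 8.14 after fear conditioning and 7.72 to 8.43 at baseline. Among vascular genes, Slc2a1, the glucose transporter of the blood-brain barrier, differed by 0.36 (SE 0.12) and Cldn5, the tight-junction claudin of endothelium, by 0.36 (SE 0.16), with 4 of 5 conditioning arrays above the baseline range for Cldn5. Red cell genes did not share this pattern, Hbb differing by -0.25 (SE 0.24).

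Extracellular matrix genes were positive in 14 of 19, with a median of 0.14, and 6 were higher and 0 lower at an unadjusted p under 0.05. Beside Plat, they included Sparc, a matrix protein secreted by glia and endothelium, with 12.03, 11.77, 11.30, 12.07 and 11.50 after fear conditioning and 10.18 to 11.69 at baseline (median 11.43; 0.53, SE 0.18). Fn1, fibronectin, differed by 0.41 (SE 0.16) and Col4a2, a basement-membrane collagen, by 0.26 (SE 0.11). The list mean exceeded the baseline range in 4 of 5 conditioning arrays, and was low in baseline replicates 6 to 8 (-0.27, -0.13 and -0.21). Against baseline replicates 1 to 5 alone 0 members were higher and 1 lower at an unadjusted p under 0.05. The endothelial list mean was -0.20, -0.11 and -0.25 in the same arrays, and the part of vascular content in the matrix genes was not tested.

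**Figure D3:**
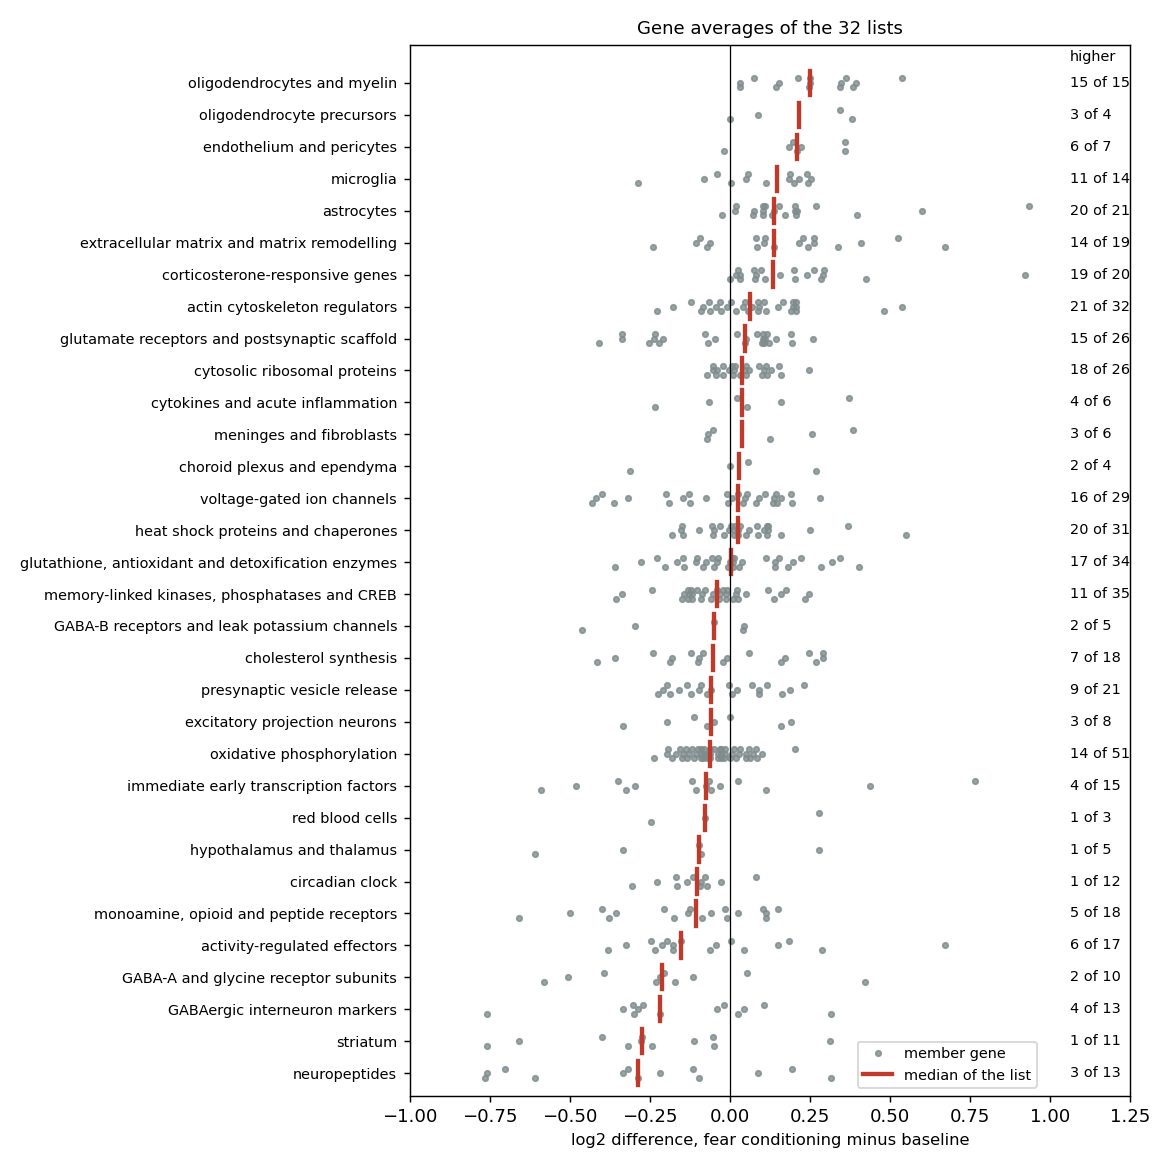
Log2 difference (fear conditioning minus baseline) of each tested gene (grey points) in the 32 lists, ordered by the list median (red bar); the right-hand column gives how many members had a positive difference. The oligodendrocyte and myelin list is at the top with 15 of 15 positive and a median of 0.25, and the neuropeptide list at the bottom with 3 of 13 and a median of -0.29.

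**Figure D4:**
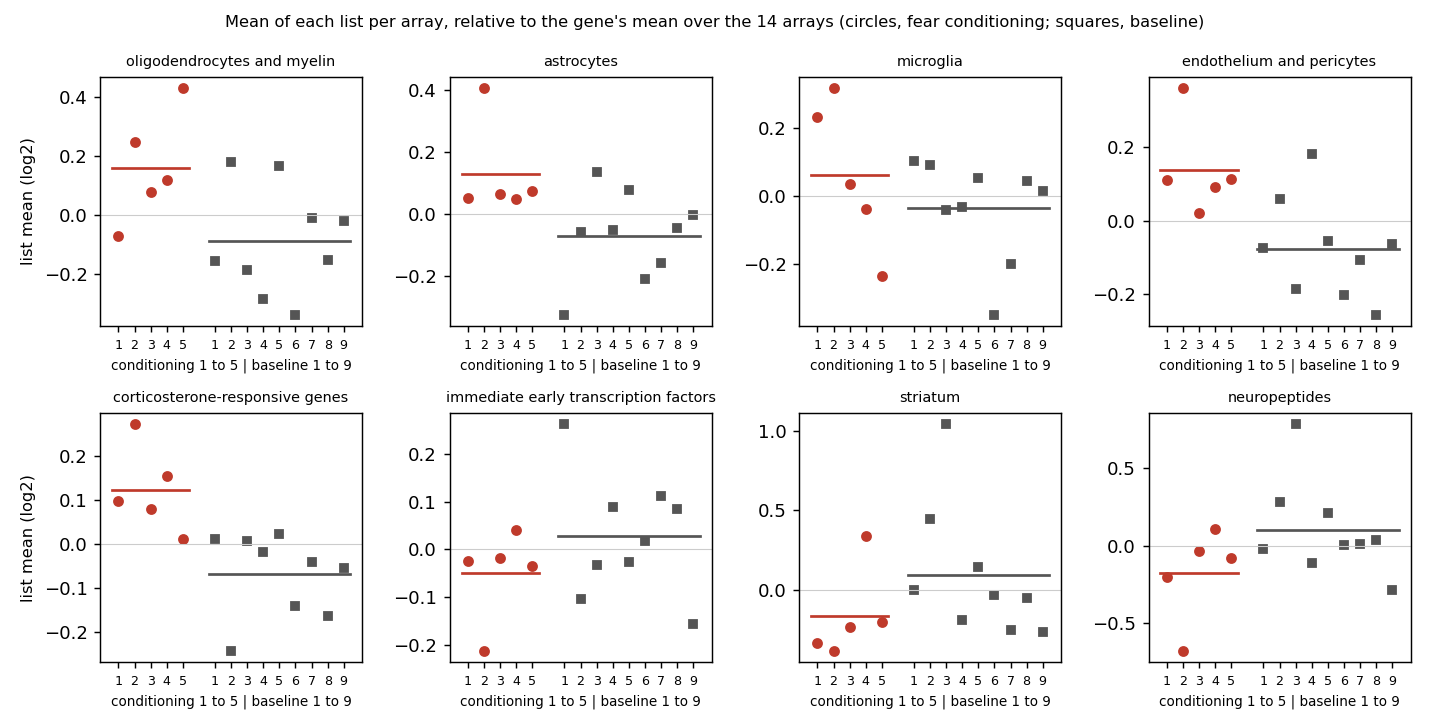
Mean of 8 lists in each array, as the average over members of the log2 signal minus the gene's mean over the 14 arrays; red circles are fear conditioning arrays 1 to 5, grey squares baseline arrays 1 to 9, lines the group means. Conditioning array 2 stands out for astrocyte and endothelial genes, conditioning array 4 for striatal genes, and baseline array 3 for striatal genes and neuropeptides.

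Inhibitory receptor subunits lay mostly on the low side. Of 10 GABA-A and glycine receptor genes above the filter, 8 had negative differences and the median was -0.21; 4 were lower and 1 higher at an unadjusted p under 0.05. Gabra4, a subunit of receptors outside synapses, read 7.17, 7.69, 8.11, 7.60 and 7.76 after fear conditioning, against 7.76 to 8.65 at baseline with a median of 8.27 (log2 difference -0.58, SE 0.18, adjusted p 0.39). Glra2, the alpha 2 glycine receptor, read 7.79, 7.59, 8.56, 8.23 and 8.16, against 8.12 to 9.15 at baseline (median 8.62; -0.51, SE 0.18). For both, array 3 was the highest conditioning array. Gabrb2, a beta subunit of the main synaptic receptor, differed by -0.22 (SE 0.10). Gabrb1, the related beta 1 subunit, which glia also express, ran the other way, with 10.75, 10.99, 11.02, 11.18 and 11.06 after fear conditioning and 10.06 to 10.97 at baseline (median 10.62; 0.42, SE 0.12), and 4 of 5 conditioning arrays above the range. The list median stayed negative in all 26 alternatives run, between -0.27 and -0.15, but only 2 genes were lower at that p against baseline replicates 1 to 5 alone, against replicates 6 to 9 alone, and without the 4 arrays that stand apart. The list mean lay below the baseline range in 4 of 5 conditioning arrays, array 3 being the exception.

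Markers of GABAergic interneurons, the cells that gate amygdala output, had 9 of 13 members with negative differences and a median of -0.22, and 0 had an unadjusted p under 0.05 in the limma fit. The median was -0.07 without the 4 arrays that stand apart, -0.10 against baseline replicates 6 to 9 alone (6 of 13 positive, 1 higher and 2 lower, 1 past adjustment) and 0.03 when filtering at the 70th percentile, and no direction is given for this list. Gad1, the GABA-synthesizing enzyme, differed by -0.04 (SE 0.18). Cck, a peptide of a class of basket cells, read 12.21, 11.93, 12.28, 11.75 and 12.01 after fear conditioning, against 11.44 to 12.75 at baseline with a median of 12.53 (-0.33, SE 0.17), and Sst, somatostatin, differed by -0.29 (SE 0.17). Neuropeptides as a list had 10 of 13 negative, a median of -0.29 and 1 lower at an unadjusted p under 0.05. That one was Adcyap1, the stress peptide PACAP, with 8.53, 7.29, 7.78, 8.63 and 7.84 after fear conditioning and 7.02 to 9.58 at baseline (median 8.72; -0.70, SE 0.29). The neuropeptide list mean was lowest in conditioning array 2 (-0.68) and highest in baseline array 3 (0.78), and its median was -0.14 without the 4 arrays that stand apart.

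Receptors for monoamines, opioids and peptides were negative in 13 of 18 (median -0.11), with 4 lower and 0 higher at an unadjusted p under 0.05. Sstr1, a somatostatin receptor, read 8.76, 8.37, 9.54, 8.82 and 8.97 after fear conditioning, against 8.90 to 9.94 at baseline with a median of 9.52 (-0.50, SE 0.18). Oprl1, the nociceptin receptor, differed by -0.38 (SE 0.14), and the dopamine receptors Drd1 by -0.40 (SE 0.16) and Drd2 by -0.66 (SE 0.30). Drd1 and Drd2 also mark striatum, which borders the amygdala. Striatal genes were negative in 10 of 11 (median -0.27, 3 lower at an unadjusted p under 0.05), and the baseline arrays ranged widely in them, from -0.27 to 1.04 in list mean. Against baseline replicates 6 to 9 alone the striatal median was 0.01. How much neighbouring striatum in the samples contributes to the dopamine receptor values was not tested. The receptor list had a median of 0.01 without the 4 arrays that stand apart.

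Excitatory transmission showed little on either side. Glutamate receptors and postsynaptic scaffolds were positive in 15 of 26 (median 0.05), with 1 higher and 3 lower at an unadjusted p under 0.05, and the median was -0.05 without the 4 arrays that stand apart. Grin1, the obligate NMDA receptor subunit, read 10.57, 10.03, 10.22, 10.07 and 9.99 after fear conditioning, against 10.34 to 10.68 at baseline (median 10.37; -0.24, SE 0.10), with all but array 1 under the range. Gria3, an AMPA receptor subunit, differed by 0.26 (SE 0.11), and Grm7 and Grm2, presynaptic metabotropic receptors, by -0.41 (SE 0.18) and -0.34 (SE 0.16). Presynaptic release genes were positive in 9 of 21 (median -0.06), with 3 lower at that p: Napa (-0.20, SE 0.08) and Nsf (-0.23, SE 0.10), which take apart spent SNARE complexes, and Dnm1, the dynamin of vesicle retrieval (-0.19, SE 0.08). Their lowest conditioning array was array 2 in each case. For Nsf the tested probe sets differed by -0.41, -0.23 and -0.03, the last with the highest signal. The median of the presynaptic list was 0.09 without the 4 arrays that stand apart. The memory-linked kinases, phosphatases and CREB genes were positive in 11 of 35 (median -0.04), with only Ppp3r1, the calcineurin B subunit, at an unadjusted p under 0.05 (-0.36, SE 0.17). Tested probe sets of Ppp3r1 differed by -0.65 and, at a higher signal, by -0.06. Voltage-gated channels were positive in 16 of 29 (median 0.03), with 3 lower at that p, among them Kcnq3 of the M-current (-0.40, SE 0.17).

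Stress-protein and metabolic lists had genes on both sides of baseline. Heat shock proteins and chaperones were positive in 20 of 31 (median 0.02), Cryab apart from which Hspa5, the chaperone of the endoplasmic reticulum (0.25, SE 0.12), was the other higher gene at an unadjusted p under 0.05. Glutathione and antioxidant enzymes were positive in 17 of 34 (median 0.00), with 4 higher and 3 lower, and the related peroxiredoxins stood on opposite sides, Prdx6 at 0.34 (SE 0.13) and the mitochondrial Prdx5 at -0.28 (SE 0.09). Oxidative phosphorylation was positive in 14 of 51 (median -0.06), 1 higher and 3 lower, the higher one being Uqcrq. With the deposited scaling 10 of 51 were positive (median -0.09, 1 higher and 9 lower), with arrays centred on their medians 4 (median -0.17, 0 higher and 14 lower), and against baseline replicates 6 to 9 alone 18 (median -0.07, 2 higher and 11 lower). Clock genes were positive in 1 of 12 (median -0.10), with Bhlhe40, a repressor in the clock, at -0.31 (SE 0.13). The hour of death is not given for the baseline arrays, so time of day and conditioning cannot be told apart for this list. Actin regulators were positive in 21 of 32 (median 0.06, and -0.02 with arrays centred on their medians), among them Msn, moesin of the cell cortex (0.48, SE 0.16). Ribosomal protein genes were positive in 18 of 26 (median 0.04, with -0.07 when arrays were centred on their medians and -0.02 without the 4 arrays that stand apart).

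To ask which differences belong to learning as distinct from pain, or are absent when conditioning takes place under isoflurane, fear conditioning was tested directly against those groups. Limma called 0 of 9520 probe sets against pain (0 percent, lowest adjusted p 0.0937, 861 at an unadjusted p under 0.05) and 0 against conditioning under isoflurane (0 percent, lowest adjusted p 0.999, 351 at an unadjusted p under 0.05). Pain replicate 3 stood apart, with a median deposited signal of 292 against 227 to 244 in the other pain arrays and a mean correlation with its group of 0.914 against 0.951 to 0.957. Without it, a choice made after seeing the data, the lowest adjusted p against pain was 0.112 (733 at an unadjusted p under 0.05, 0 called), and with the deposited scaling it was 0.527 (712, 0 called). Differences of these groups from baseline share the 9 baseline arrays, so they are given side by side only. Ier5l, Tnpo1 and Cryab were chosen for low p in the same fear conditioning arrays that the direct tests use. That choice pushes their direct differences in the chosen direction, so these are no separate support. Ier5l averaged 7.15 ± 0.14 after fear conditioning, against 7.88 ± 0.37 after pain (SD, n = 5 each), a log2 difference of -0.73 (SE 0.15, adjusted p 0.162). Pain replicate 3 read 8.36, and without it the pain mean was 7.76 ± 0.30 (SD, n = 4) and the log2 difference -0.61 (SE 0.15, adjusted p 0.566). Ier5l stood 0.59 below baseline after conditioning and 0.14 above baseline after pain (0.02 without pain replicate 3). Under isoflurane, conditioned samples differed from baseline by -0.39 in Ier5l, and fear conditioning differed from them by -0.20 (adjusted p 0.999). Tnpo1 stood 0.75 higher after fear conditioning than after pain (SE 0.22, adjusted p 0.367). Cryab stood 0.52 higher after fear conditioning than after conditioning under isoflurane (SE 0.16, adjusted p 0.999), with differences from baseline of 0.55 after fear conditioning, 0.31 after pain and 0.03 after conditioning under isoflurane. Of the lists, the myelin median was 0.25 after fear conditioning, 0.07 after pain and 0.03 after conditioning under isoflurane. The corticosterone median was 0.13, 0.07 and 0.12 in the same order, and that of endothelium and pericytes 0.21, 0.16 and 0.27. Fkbp5 differed from baseline by 0.28 after fear conditioning, 0.50 after pain and 0.23 after conditioning under isoflurane, and Hbb by -0.25, -1.19 and -0.39 in that order. Fear conditioning minus pain was 0.95 for Hbb (adjusted p 0.361) and -0.21 for Fkbp5 (adjusted p 0.632). Without pain replicate 3 these were 0.83 (adjusted p 0.565) and -0.08 (adjusted p 0.898), and the pain medians were -0.01 for myelin, 0.12 for corticosterone and 0.14 for endothelium and pericytes. None of these differences passed the test.

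**Figure D5:**
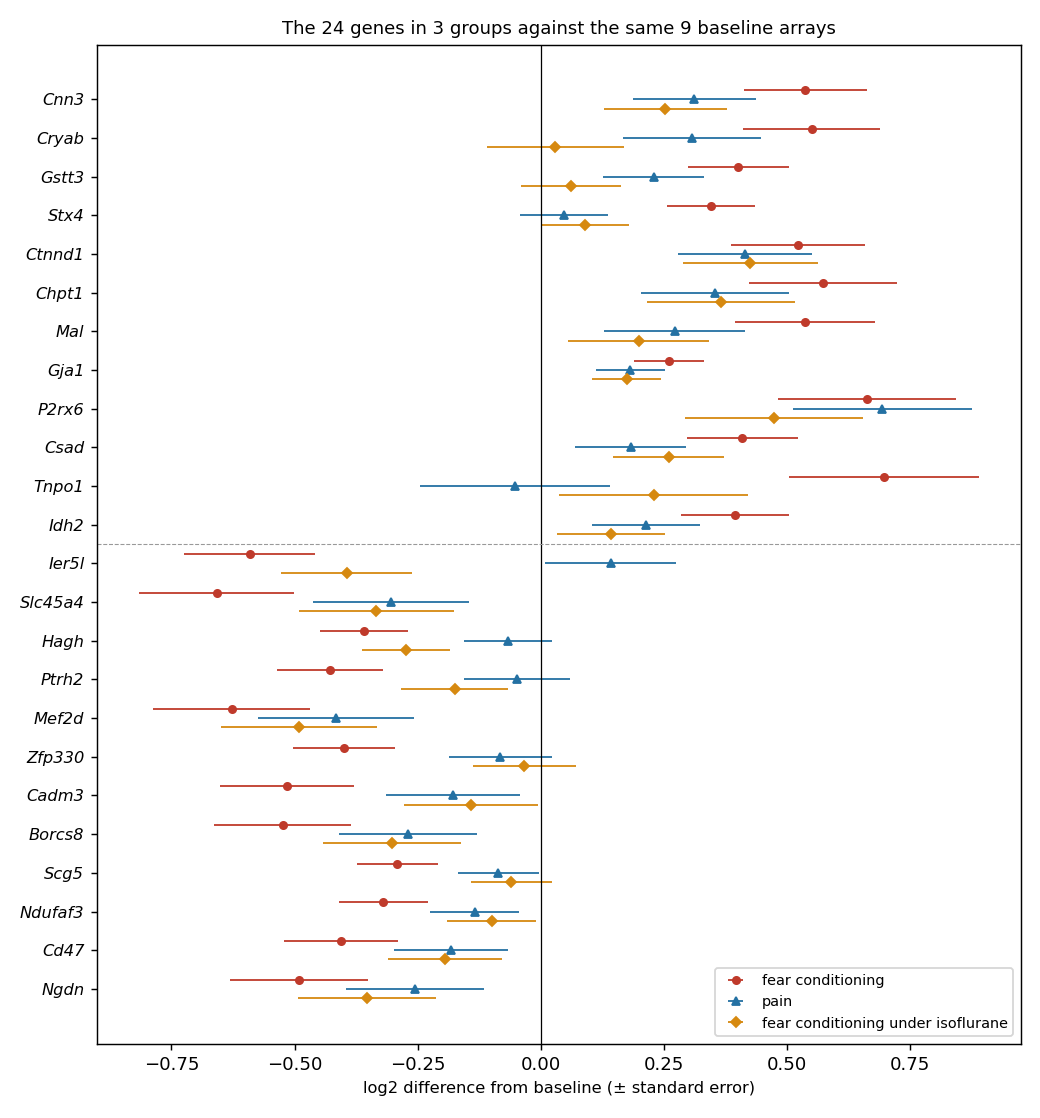
Log2 difference from the same 9 baseline arrays (horizontal axis, ± standard error of the fit) of the 24 genes with the lowest p, after fear conditioning (red circles), pain (blue triangles) and fear conditioning under isoflurane (orange diamonds). The upper 12 genes were higher and the lower 12 lower after conditioning, which the choice of genes fixes; Ier5l lies 0.59 below baseline after conditioning and 0.14 above it after pain, or 0.02 without pain replicate 3.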

How the data were processed

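Expression was measured in rat basolateral amygdala on 1-colour arrays. The authors deposited linear signal intensity values per probe set, scaled so that each array's trimmed mean was nearly equal; the software is not given in the sources used here. Of 15923 probe sets, 57 controls were left out. Because the log2 medians of the arrays ranged over 0.47, intensities were quantile normalized over all 29 arrays, floored at 16 and put on the log2 scale. Probe sets with a mean log2 signal under 7.26 (40th percentile) were left out, leaving 9520. Of the 15866 probe sets, 12783 had 1 gene symbol, 312 several and 2771 none in the platform annotation, and 12748 matched the RefSeq table. Tests used limma 3.58.1 in R 4.3.3 (1 mean per group over 5 groups, trended eBayes, Benjamini-Hochberg), and were tested on simulated data. Gene values average a gene's tested probe sets, except for the 24 leading genes, which use 1 probe set. No pair of arrays held identical values. The number of arrays limits the precision.

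Members and lists were chosen with earlier results of these data known. Named genes are the 12 higher and 12 lower with the lowest p, up to 4 members with the lowest p of each list described, members whose groups do not overlap, and a fixed set of activity, corticosterone and cell-type genes. Alternatives covered scaling, filter, floor, arrays fitted, replicate block, array weights, robust eBayes, parts of the baseline group, each replicate left out and, for pain, its replicate 3 left out.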

Additional observations from a re-analysis of the deposited data

Results flagged for a closer look

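Of 112 groups of values checked (48 of genes, 64 of list means), 7 held 1 array far from the others of its group. Chance flags about 1 group in 20, so 7 of 112 is near the chance share. Baseline replicate 3, which is among the 4 arrays that stand apart, was not flagged here. Idh2 read 9.88 in baseline replicate 6, against 10.18 to 10.35 in the other baseline arrays. The mean of actin regulators was -0.0425 in fear conditioning replicate 4, against 0.0492 to 0.0807 in the other conditioning arrays. The striatal mean was 0.337 in the same array, against -0.385 to -0.206 in the others. In fear conditioning replicate 2 the astrocyte mean was 0.404, against 0.0468 to 0.0736, and the mean of endothelium and pericytes was 0.359, against 0.0206 to 0.112. The mean of voltage-gated channels was -0.142 in baseline replicate 7, against -0.0158 to 0.0745 in the other baseline arrays. The choroid plexus and ependyma mean was 2.46 in baseline replicate 1, against -0.852 to 0.258 in the others.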

How the results depend on the processing

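Limma called 0 probe sets for fear conditioning minus baseline in all alternatives run but 2: 101 against baseline replicates 6 to 9 alone, and 1 without the 4 arrays that stand apart, which was chosen after seeing the data. The number at an unadjusted p under 0.05 was 966, with 1728 against baseline replicates 6 to 9, 571 without the 4 arrays, 570 with the filter at the 70th percentile (fewer probe sets tested), and 575 (without fear conditioning replicate 2) to 1194 with 1 replicate left out. The cause of the difference between parts of the baseline group was not tested. Replicate numbers were also used as a block: correlations of same-numbered deviations were 0.14, 0.11, 0.14, 0.04 and 0.04, 3 of them over 0.1. With not every pair over 0.1, the numbers were not treated as pairs; that 3 of 5 numbers correlated best with their own is a hint from the data, not the design. The replicate block gave 0 calls and 665 at an unadjusted p under 0.05. Replicates 6 to 9 occur only at baseline, so the block takes them out of the comparison. Its log2 differences are those against baseline replicates 1 to 5 alone (Hbb 0.138 and Nr3c1 -0.0790 in both), so it is no separate alternative.

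The 24 leading genes kept their sign against baseline in the alternatives run, which their choice by lowest p in the same arrays makes likely. Of 164 gene results, 13 changed sign at least once, in 47 values. Fear conditioning minus pain for P2rx6 (-0.03) was 0.0837 without pain replicate 3. Fos (-0.06) was 0.0575 with the deposited scaling, 0.0635 without a filter, 0.0109 with array weights, 0.555 against baseline replicates 6 to 9, 0.0865 without the 4 arrays, and -0.281 to 0.0975 with 1 replicate left out. Homer1 (0.00) was -0.0589 with median-centred arrays, -0.160 at the 70th percentile, -0.173 against baseline replicates 6 to 9, and -0.0721 to 0.0820 with 1 replicate left out. Nr3c1 (0.03) was -0.0234 with median-centred arrays, -0.0200 without a filter, -0.0790 with the replicate block and against baseline replicates 1 to 5, -0.0113 without the 4 arrays, and -0.0128 to 0.116 with 1 replicate left out. Gad1 (-0.04) was 0.0363 at the 70th percentile, 0.0202 with array weights, 0.195 against baseline replicates 6 to 9, and -0.118 to 0.0571 with 1 replicate left out. Sgk1 was -0.00652 with median-centred arrays and -0.0347 without the 4 arrays, and Rheb 0.0911 without a filter. Hbb was 0.138 with the replicate block and against baseline replicates 1 to 5. Against baseline replicates 6 to 9, Tac1 was 0.0585, Arc 0.296 and Ppp1r1b 0.00522, and with 1 replicate left out Arc was -0.170 to 0.0390. Without the 4 arrays Nr1d1 was 0.0196 and Ttr 0.634, and with 1 replicate left out Ttr was -0.542 to 0.348, the highest without baseline replicate 1.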
